A study of Mus musculus with 24 samples.

Results

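The major urinary protein (Mup) genes were followed across livers of fed and fasted mice that have or lack p110α in hepatocytes, where this lipid kinase subunit acts downstream of the insulin receptor. Every probe outside the array's controls that the array files name Mup1, Mup2, Mup3, Mup4, Mup5, Mup20 or Mup21 was taken, whatever its values. These 7 of the 37074 gene names on the array were read by 11 of its 56605 probes. The RNA of 24 livers was hybridised to 24 one-colour arrays, with 6 livers in each of 4 groups. All mice were males of 12 weeks killed at ZT16, 16 h after lights on. LWT mice were Albumin-Cre-/- littermates that carried the floxed p110α allele without Cre. LKO mice were Albumin-Cre+/- p110α flox/flox, in which Cre expressed from the albumin promoter deletes floxed exons of Pik3ca, the p110α gene, in hepatocytes. LWT_Fed and LKO_Fed mice ate ad libitum, and LWT_Fasted and LKO_Fasted mice were without food for 24 h from ZT16. Each of 3 slides held 2 arrays of every group.

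Mup genes lie in a tandem cluster and encode small secreted lipocalins, which carry volatile pheromones in a hydrophobic pocket and leave the body in urine. Adult male mouse liver makes very large amounts of Mup mRNA. Transcription there is known to depend on pulsatile growth hormone, acting through its receptor, JAK2 and STAT5, with androgen and thyroid hormone as further controls, and the proteins have been linked to glucose and lipid metabolism. Mup20 encodes darcin, a male pheromone protein. Mup4 and Mup5 are best known from lachrymal and salivary glands, and Mup1 and Mup2 belong to the central group of near-identical genes. Because the genes are so alike, a probe named for one member can bind the mRNA of others, so each value below belongs to a probe.

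All 11 probes lie on the minus strand of chromosome 4 of mm9, and none was placed in an exon or UTR, since annotation of that build was not used here. The Mup4 probe (A_51_P266883) is at chr4:59969824-59969883, the Mup2 probe (A_55_P2010097) at chr4:60149741-60149800 and the Mup1 probe (A_55_P1979904) at chr4:60512590-60512649. The Mup5 probe (A_52_P412506) is at chr4:61496097-61496156. The Mup20 probes are at chr4:61713671-61713730 (A_55_P2051486) and chr4:61711407-61711466 (A_55_P2063654). The Mup3 probes are at chr4:61745794-61745853 (A_55_P1971237), chr4:61744500-61744548 (A_52_P232508) and chr4:61743330-61743389 (A_66_P133052). The last of these lists a cDNA clone and no Mup3 transcript. The Mup21 probes are at chr4:61808866-61808925 (A_55_P2025343) and, across a gap of the genome, at chr4:61809270-61809669 (A_55_P2743972). Among genes with a Mup symbol, A_55_P2025343 lists only Mup21, whereas A_55_P2743972 lists Mup21, Mup1, Mup2 and Mup19.

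The likeness of the probes themselves is shown first, because it bounds what each signal can be credited to. Each 60-base probe was slid without gaps along the other probes of Mup-named or Mup-described genes. Among pairs not printed, Mup1 and the Mup21 probe A_55_P2743972 held the same base at 42 of 45 overlapping positions. The Mup4 probe shared 43 of 47 with a probe of the pseudogene Mup-ps16 and 45 of 52 with Mup20 A_55_P2063654. That Mup20 probe shared 49 of 55 with the Mup-ps16 probe, and the Mup5 probe 27 of 32 with a pseudogene probe (A_55_P2116674). The Mup20 probe A_55_P2051486 and a probe described as a Mup pseudogene (A_55_P2103703) hold the same base at 54 of 60 positions, with capitals at the other 6.
Mup20 (A_55_P2051486): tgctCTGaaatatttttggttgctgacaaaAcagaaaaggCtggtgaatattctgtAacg
Mup pseudogene (A_55_P2103703): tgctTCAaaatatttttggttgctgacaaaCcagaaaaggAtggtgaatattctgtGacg
The Mup3 probe A_55_P1971237 and another such probe (A_55_P2033326) hold the same base at 52 of 60 positions, with capitals at the other 8.
Mup3 (A_55_P1971237): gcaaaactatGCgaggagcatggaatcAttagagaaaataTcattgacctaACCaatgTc
Mup pseudogene (A_55_P2033326): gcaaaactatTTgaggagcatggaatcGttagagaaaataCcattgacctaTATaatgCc
The Mup21 probe A_55_P2025343 had no such pair, and its alignments with the other Mup probes, kept by matches less 2 for each mismatch over at least 30 bases, held the same base at 34.4% to 53.7% of positions. Its last 30 bases are shown because the only call among the member probes rests on it, with nothing in capitals.
Mup21 (A_55_P2025343): tgcccccaaattacaataaaaatgtttgat

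RefSeq promoter windows (GRCm38.p6, 250 bases before to 50 after the start) were matched by symbol for 4 of the 7 members, Mup2, Mup3, Mup4 and Mup21. Mup1, Mup5 and Mup20 had no entry. All 4 windows hold TATATAA once, on the gene's own strand, and 3.24% of the 32851 windows in the table hold it on either strand. The 60 bases that end with it are shown because they let the members be compared where transcription begins, with TATATAA in capitals.
Mup2 (chr4:60139877-60139936, minus strand): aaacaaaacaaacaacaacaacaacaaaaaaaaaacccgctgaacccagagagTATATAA
Mup3 (chr4:62087322-62087381, minus strand): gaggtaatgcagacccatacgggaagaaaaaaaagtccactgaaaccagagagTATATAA
Mup4 (chr4:59960690-59960749, minus strand): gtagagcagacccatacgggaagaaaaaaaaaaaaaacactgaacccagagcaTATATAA
Mup21 (chr4:62150843-62150902, minus strand): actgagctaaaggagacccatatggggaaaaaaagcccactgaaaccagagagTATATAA
Compared without gaps, pairs of these stretches share 34 to 38 of 60 bases. The first T of TATATAA is 27 bases before the annotated start in Mup2 and 29 in Mup4, but 11 in Mup3 and 8 in Mup21. TTCNNNGAA, the palindrome that STAT5 is known to bind, is in none of the 4 windows on either strand, against 8.30% of all windows, which says only that these letters are not within these 300 bases.

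Pik3ca, the targeted gene, was read by 1 probe (A_65_P09318). Its mean log2 signal was 11.91 ± 0.21 in LWT_Fed, 12.28 ± 0.14 in LWT_Fasted, 12.54 ± 0.26 in LKO_Fed and 12.26 ± 0.19 in LKO_Fasted (SD, n = 6 arrays each). It was not lower in LKO, with a log2 difference of 0.58 ± 0.11 (SE) in fed mice and -0.02 ± 0.12 in fasted mice. In fed mice limma passed it as higher in LKO (adjusted p 0.00146), and in fasted mice it did not pass (adjusted p 0.93). Whether the probe lies in the deleted part was not tested, so the genotypes rest on the labels and each LKO value is that of an array labelled LKO. Between 54.7% and 63.0% of probes on an array were well above background. Of 7 hepatocyte markers on the array, all were well above background in every group, which for markers means on at least 5 of its 6 arrays. Their summed median signal was 2002540 to 2201260 in LWT_Fed, 2149660 to 2301040 in LWT_Fasted, 2055280 to 2213620 in LKO_Fed and 2132840 to 2198090 in LKO_Fasted, so the groups overlapped. LKO_Fasted replicates 1 and 2 stood apart from their group in many genes in an earlier analysis of these files, so Mup21 is also given without them. In whole liver, fewer cells of a type and less RNA per cell cannot be told apart.

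The Mup probes were among the brightest on every array. Without the Mup3 probe A_66_P133052, the other 10 member probes ranked between 5 and 753 of the 32197 probes tested. The Mup1 probe reached a median signal of 509006, against array maxima of 535982 to 596044, and no spot was marked as saturated. A top position leaves little room above a probe, and quantile normalization gives probes of equal rank on different arrays an equal value, so Mup1 repeated values such as 18.82 and 18.89 between arrays. A_66_P133052 was dim, at a median signal of 227 to 447 and a rank between 13779 and 17242, yet it was well above background on all 24 arrays. Levels are not compared between probes.

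**Figure D1:**
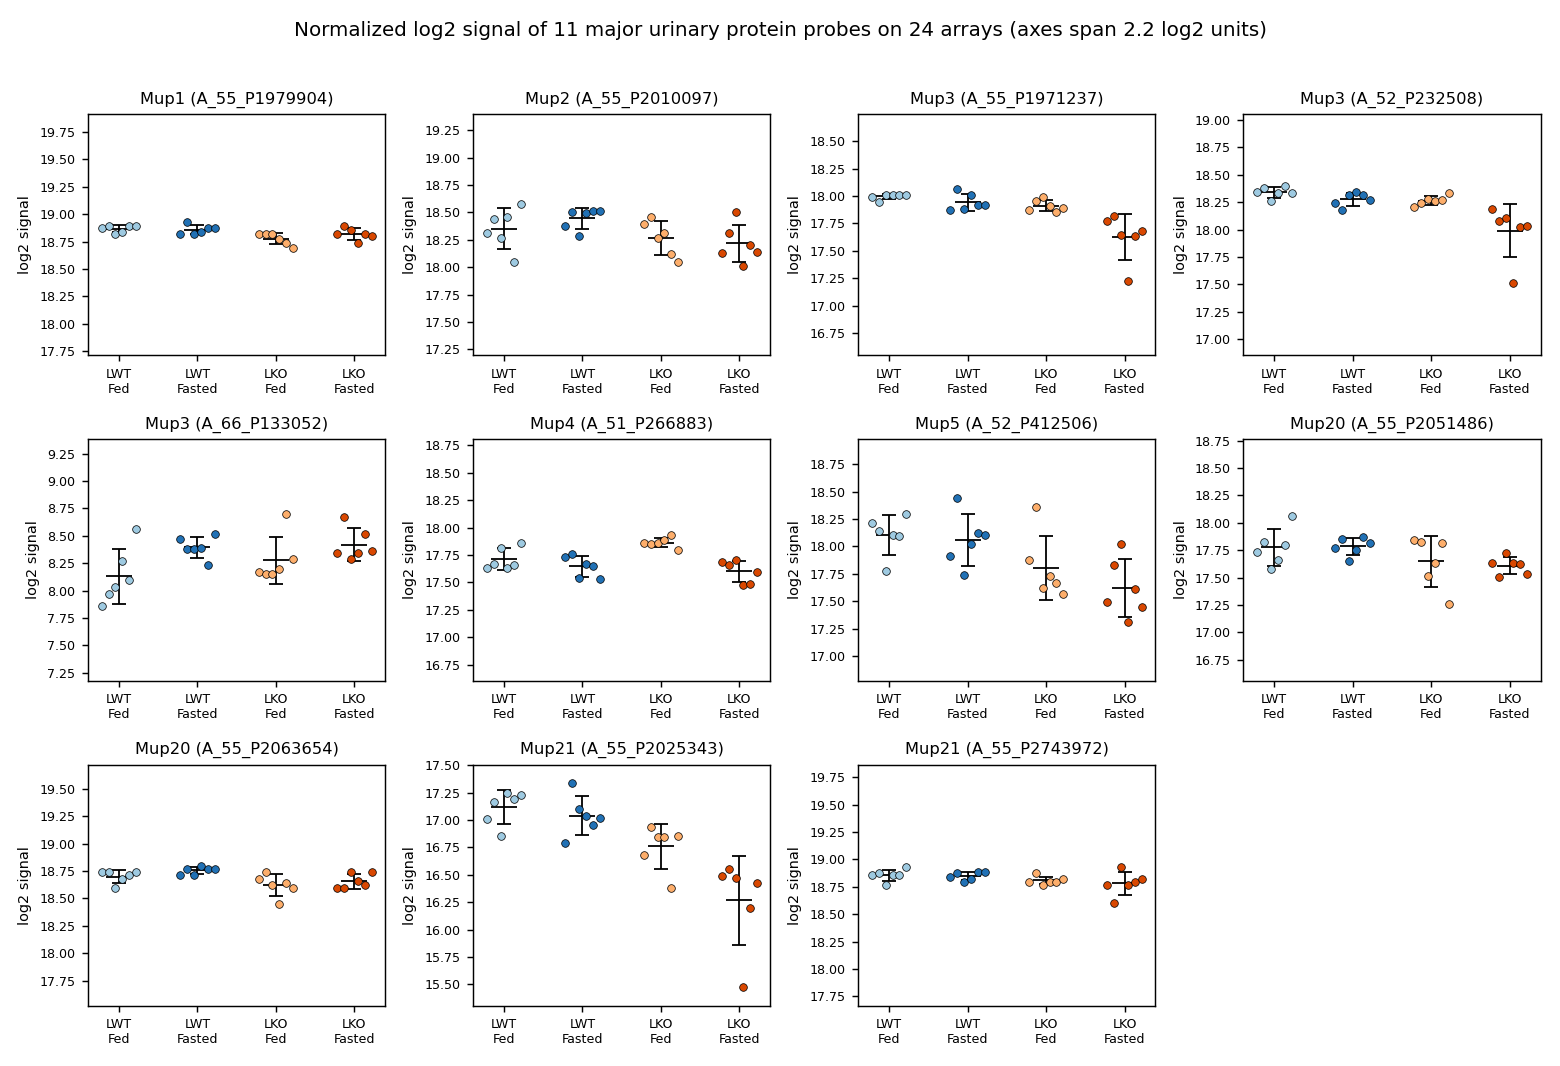
Normalized log2 signal of each of the 11 Mup probes (1 panel per probe) by group; each point is 1 array, and the bar and whiskers are the mean ± SD of 6 arrays. For Mup21 A_55_P2025343 the LKO_Fasted arrays, at 15.48 to 16.55, sit below both LWT groups and overlap LKO_Fed, and replicate 4 of that group is the low point for it and for the bright Mup3 probes.

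Mup21 gave the largest difference between groups, seen with the probe that lists no other Mup gene (A_55_P2025343). Its log2 signal ran from 16.86 to 17.25 with a median of 17.18 in LWT_Fed, and from 16.79 to 17.34 with a median of 17.03 in LWT_Fasted. In LKO_Fed it ran from 16.38 to 16.94 with a median of 16.85. In LKO_Fasted it was 16.49, 16.55, 16.47, 15.48, 16.19 and 16.43 in replicates 1 to 6. All 6 LKO_Fasted arrays were below all 6 LWT_Fasted arrays, whereas LKO_Fasted overlapped LKO_Fed.

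Mup21 fell in fasted LKO against fasted LWT livers by 0.64 on the log2 scale (SE 0.11, 95% interval -0.87 to -0.42), which is 1.56-fold lower, with an adjusted p of 0.000264. Adjusted p-values here come from limma with Benjamini-Hochberg adjustment over all 32197 probes, and a probe was called where that p was at most 0.05 and the fold above 1.5. This was the only call among the 11 member probes in this comparison (1 of 11), where 3.61% of all probes tested were called and 2.03% were called lower. Of all probes, 4.24% had every LKO_Fasted array below every LWT_Fasted array, as Mup21 did. The call ended without LKO_Fasted replicate 4, at a log2 difference of -0.57 and an adjusted p of 5.2e-05, since the fold was then under 1.5. Without LKO_Fasted replicates 1 and 2 it was -0.71, with an adjusted p of 0.000653.

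With a smaller size, Mup21 was also lower in fed LKO than in fed LWT livers, by 0.39 on the log2 scale (SE 0.10, adjusted p 0.0135, but 0.0957 without array weights). Fasting lowered it in LKO by 0.41 (SE 0.11, adjusted p 0.00527, but 0.0578 with only the compared groups in the fit). In LWT livers the change with fasting was -0.15 (SE 0.10, adjusted p 0.254). The test of the difference between these fasting responses gave -0.26 (95% interval -0.57 to 0.05, adjusted p 0.318), so a different response in LKO was not shown. The shared Mup21 probe (A_55_P2743972) read 18.77 to 18.93 in LWT_Fed, 18.80 to 18.89 in LWT_Fasted, 18.77 to 18.87 in LKO_Fed and 18.60 to 18.93 in LKO_Fasted. These groups overlapped, and its difference between fasted genotypes was -0.06 (95% interval -0.16 to 0.05). Its change with fasting in LKO was -0.01 (adjusted p 0.925), but it reached -0.25 in other settings and passed in 2 of 36.

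Some markers of other cell types also differed between genotypes, in both directions. Over all genes, 3.84% were called between fed and 4.06% between fasted genotypes. Of 5 bile duct markers, limma called only Spp1 lower, in both states, from a mean log2 signal of 10.92 in LWT to 9.36 in LKO when fed and from 10.51 to 8.45 when fasted (adjusted p 0.00025 and 5.49e-06 for fed and fasted livers). Epcam passed as lower in both states and Krt19 in fed livers, under the 1.5-fold minimum, and Krt7 and Sox9 passed in neither. The 5 were well above background in both LWT groups, Epcam was not in LKO_Fed, and Krt7 and Epcam were not in LKO_Fasted. Their summed signal was 1918 to 2951 in LWT_Fed and 717 to 1691 in LKO_Fed. It was 1849.5 to 2256 in LWT_Fasted and 536.5 to 1172.5 in LKO_Fasted, without overlap between genotypes in either state.

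Of the adipose and erythroid markers, 3 of 4 each were tested, and 1 of each was called lower in both states, namely Cfd (-3.00 in fasted livers) and Alas2 (-0.80 in fed and -0.83 in fasted livers). Cfd was not well above background in LKO_Fed, so no size is given for fed livers. The other erythroid markers, Hba-a1 and Hbb-b1, did not pass, with values of -0.31 and -0.37 in fed and 0.50 and 0.38 in fasted livers. The adipose sum was 489 to 1376.5 in LWT_Fed and 367.5 to 442 in LKO_Fed, without overlap, and 405.5 to 5588 and 357.5 to 529 in the fasted groups, with overlap. Adipoq was not well above background in any group. The erythroid sum overlapped between genotypes in both states, at 82291 to 331869 over the 4 groups. Among 3 of 5 pancreas markers tested, Cela2a was called higher in both states (0.82 and 0.63). Below the 1.5-fold minimum, Ctrb1 passed as lower in both (-0.36 and -0.31) and Amy2a5 in fasted livers (-0.51). The list's sum was 3935 to 4798.5 in LWT_Fed and 3151.5 to 3885.5 in LKO_Fed, without overlap. It overlapped in the fasted groups, at 2977 to 5335.5 in LWT_Fasted and 2863 to 4414 in LKO_Fasted. Of 5 endothelial markers, Lyve1 was called lower in fed livers (-0.88, adjusted p 0.0405) and none in fasted livers. No Kupffer, stellate or lymphoid marker was called between genotypes, and the sums of those lists and of the endothelial list overlapped. The part of any of these in the Mup21 difference was not tested.

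Mup3 moved the same way by less. With the probe A_55_P1971237, log2 signals were 17.95 to 18.01 with a median of 18.01 in LWT_Fed and 17.87 to 18.06 with a median of 17.92 in LWT_Fasted. They were 17.85 to 17.99 with a median of 17.90 in LKO_Fed and 17.23 to 17.81 with a median of 17.66 in LKO_Fasted. The LKO_Fasted arrays were below every array of LKO_Fed, as for 10.6% of all probes, and of LWT_Fasted, as for 4.24%. Mup3 fell with fasting in LKO by 0.24 (SE 0.06, adjusted p 0.0016), and it was lower in fasted LKO than in fasted LWT by 0.26 (SE 0.06, adjusted p 0.00226). Both are under the 1.5-fold minimum.

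The Mup3 probe A_52_P232508 read 18.26 to 18.40 in LWT_Fed, 18.18 to 18.34 in LWT_Fasted, 18.21 to 18.33 in LKO_Fed and 17.51 to 18.19 in LKO_Fasted. LKO_Fasted lay wholly below LKO_Fed, as for 10.6% of all probes, and overlapped LWT_Fasted. The log2 difference was -0.22 (SE 0.06, adjusted p 0.00746) for fasting in LKO and -0.25 (SE 0.06, adjusted p 0.00626) between fasted genotypes. When only the compared groups entered the fit, the difference between fasted genotypes no longer passed for either bright Mup3 probe (adjusted p 0.0661 for A_52_P232508 and 0.0542 for A_55_P1971237), nor did fasting in LKO for A_52_P232508 (0.0707). The dim Mup3 probe A_66_P133052 gave other values, with 7.86 to 8.56 in LWT_Fed, 8.23 to 8.52 in LWT_Fasted, 8.15 to 8.70 in LKO_Fed and 8.29 to 8.68 in LKO_Fasted. Its 4 groups overlapped, and its difference between fasted genotypes was 0.03 (95% interval -0.21 to 0.28). With fasting in LWT it was higher by 0.26 (adjusted p 0.0633), which did not pass but did so in 9 of 36 other settings.

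**Figure D2:**
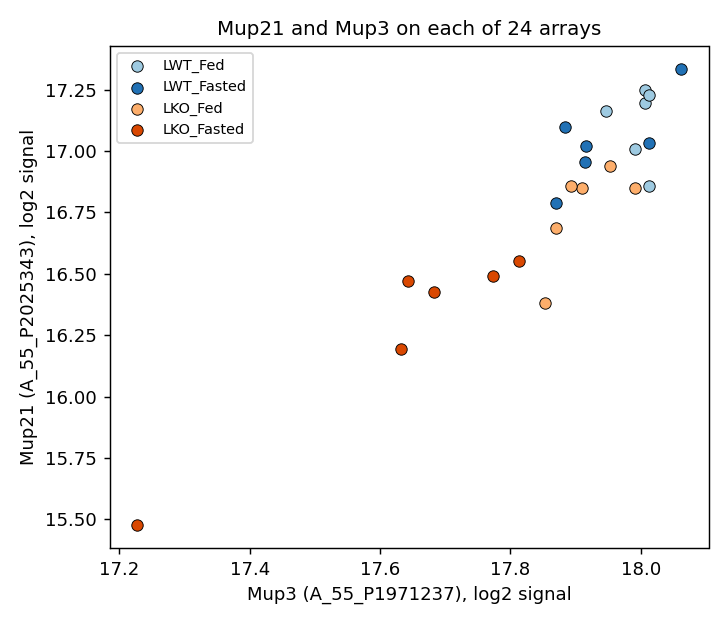
Log2 signal of Mup21 (A_55_P2025343, vertical axis) against Mup3 (A_55_P1971237, horizontal axis); each point is 1 of 24 arrays, coloured by group. The LKO_Fasted arrays lie at the lower left, and replicate 4, at 17.23 and 15.48, lies farthest out.

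In the main fit, Mup4 was the only member whose probe passed the test as higher in any of the 4 comparisons between groups. Its log2 signal was 17.63 to 17.86 with a median of 17.66 in LWT_Fed and 17.79 to 17.93 with a median of 17.86 in LKO_Fed, and these groups overlapped. It was 17.53 to 17.76 in LWT_Fasted and 17.48 to 17.70 in LKO_Fasted. Mup4 was 1.13-fold higher in fed LKO than in fed LWT (log2 difference 0.17, SE 0.06, adjusted p 0.040), a pass that held in 21 of 36 other settings. Fasting lowered Mup4 in LKO by 0.25 (SE 0.06, adjusted p 0.00213). Every LKO_Fasted array was below every LKO_Fed array, as for 10.6% of all probes. In LWT the change was -0.06 (95% interval -0.18 to 0.05), and the difference of the fasting responses was -0.18 with an adjusted p of 0.176.

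Mup5 spread widely between livers of 1 group. It read 17.77 to 18.29 with a median of 18.13 in LWT_Fed and 17.74 to 18.44 with a median of 18.06 in LWT_Fasted. It read 17.56 to 18.36 with a median of 17.70 in LKO_Fed and 17.31 to 18.02 with a median of 17.55 in LKO_Fasted. The genotype groups overlapped in both states. Differences between genotypes were -0.36 (SE 0.12, adjusted p 0.0533) in fed and -0.35 (SE 0.13, adjusted p 0.062) in fasted livers, which did not pass. They passed in 12 and 9 of 36 other settings.

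The Mup1 and Mup2 probes of the central genes did not pass in any comparison. The Mup1 probe lists Mup1, Mup2 and Mup19, and the Mup2 probe lists Mup2 and Mup1, so neither signal need belong to a single gene. Mup1 read 18.82 to 18.89 in LWT_Fed, 18.82 to 18.93 in LWT_Fasted, 18.69 to 18.82 in LKO_Fed and 18.74 to 18.89 in LKO_Fasted. Its difference between fed genotypes, the largest of its 4, was -0.09 (95% interval -0.17 to -0.01, adjusted p 0.127). Mup2 read 18.05 to 18.58 in LWT_Fed, 18.28 to 18.52 in LWT_Fasted, 18.05 to 18.46 in LKO_Fed and 18.01 to 18.50 in LKO_Fasted. Its difference between fasted genotypes was -0.20 (95% interval -0.41 to 0.0022, adjusted p 0.161).

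Both probes of Mup20, the darcin gene, gave overlapping groups. A_55_P2051486 read 17.58 to 18.06 in LWT_Fed, 17.65 to 17.87 in LWT_Fasted, 17.26 to 17.84 in LKO_Fed and 17.51 to 17.73 in LKO_Fasted. Its difference between fasted genotypes was -0.17 (95% interval -0.37 to 0.02, adjusted p 0.215). A_55_P2063654 read 18.59 to 18.74 in LWT_Fed, 18.71 to 18.80 in LWT_Fasted, 18.44 to 18.74 in LKO_Fed and 18.59 to 18.74 in LKO_Fasted. Its difference between fasted genotypes was -0.10 (95% interval -0.21 to 0.01, adjusted p 0.21).

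Counted over the 11 probes, no member was called for fasting in LWT, where 9.14% of all probes were called, or for fasting in LKO, where 12.0% were. None was called between fed genotypes, where 3.19% were, or for the difference of the fasting responses, where 2.78% were. Without a minimum fold, limma passed 0 member probes for fasting in LWT (1 at an unadjusted p under 0.05), against 41.3% of all probes. It passed 4 for fasting in LKO, all lower, against 41.3% in either direction and 20.5% lower. It passed 2 between fed genotypes, Mup4 higher and Mup21 lower, against 15.4%, and 3 between fasted genotypes, all lower, against 19.6% in either direction and 10.0% lower. For the difference of the fasting responses it passed 0 (2 at an unadjusted p under 0.05), against 7.39%.

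The member probes' median log2 difference was -0.02 for fasting in LWT and -0.03 for fasting in LKO, beside 0.0034 and -0.0056 over all probes. It was -0.09 between fed genotypes and -0.17 between fasted genotypes, beside -0.014 and -0.00013. Values below 0 were found for 8, 8, 9 and 10 of the 11 probes in this order. The count between fed genotypes depended on the setting of the fit. In 2 of 36 other settings each, Mup1 rose above 0 (up to 0.04), as did Mup2 (0.10) and Mup3 A_52_P232508 (0.03). The same held for Mup20 A_55_P2063654 (0.05) and Mup21 A_55_P2743972 (0.07). All these comparisons share groups, so their counts are not independent of each other. The medians are those of the main fit. For fasting in LKO, other settings took Mup1 from 0.05 down to -0.21 and Mup2 from -0.03 to -0.19. They took Mup20 A_55_P2063654 from 0.05 to -0.17 and Mup21 A_55_P2743972 from -0.01 to -0.25.

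**Figure D3:**
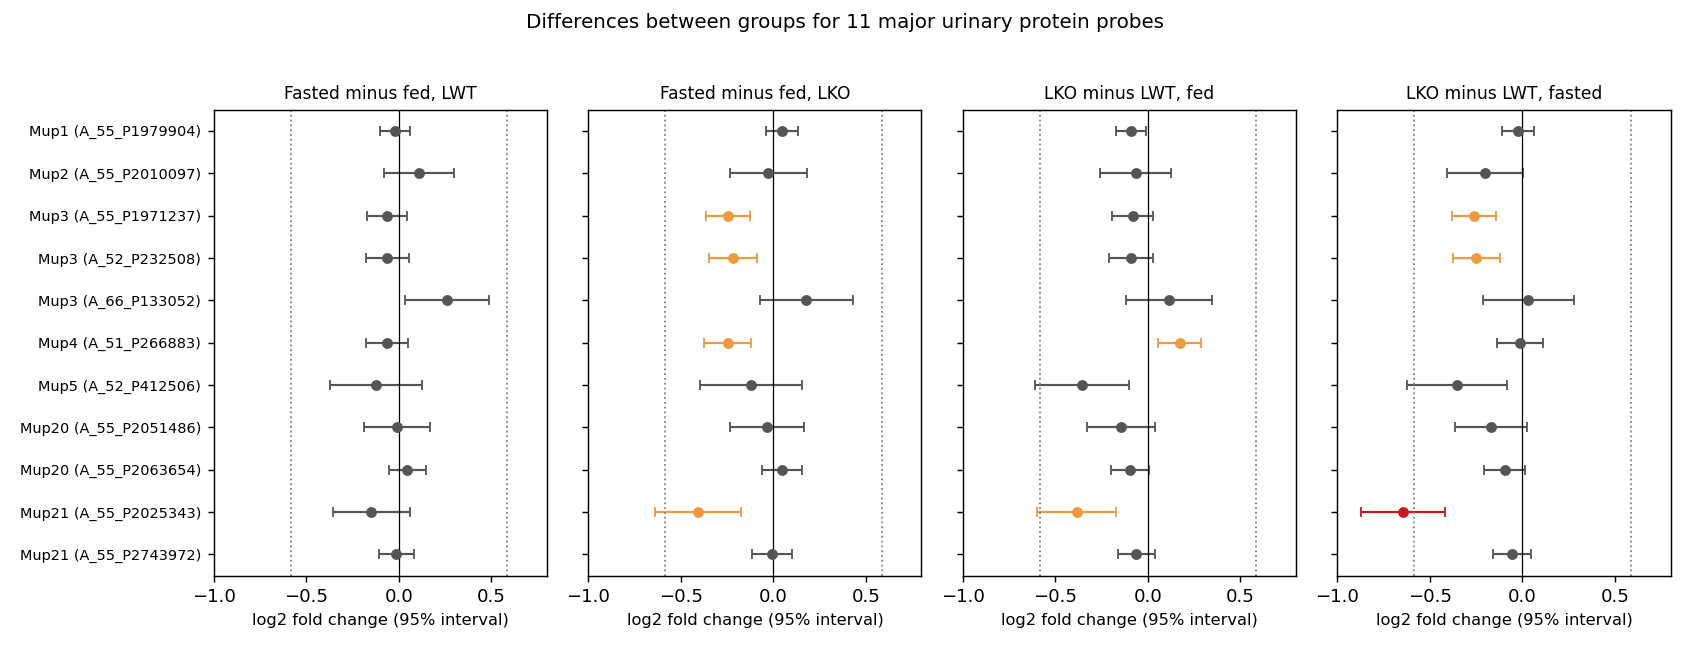
Log2 fold change with its 95% interval for the 11 Mup probes (rows) in 4 comparisons (panels); dotted lines mark 1.5-fold in either direction, red marks a call, orange an adjusted p of at most 0.05 below that fold, and grey neither. The only red point is Mup21 A_55_P2025343 between fasted genotypes, at -0.64.

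The probes also varied together within groups. Deviations of each array from its group mean were correlated across the 24 arrays, as a description, since arrays share slides and normalization. Mup21 A_55_P2025343 went with Mup3 A_55_P1971237 (Pearson r 0.85) and with Mup3 A_52_P232508 (r 0.74), and the 2 Mup3 probes went together (r 0.78). LKO_Fasted replicate 4 carried much of this, since without it these values were 0.67, 0.36 and 0.33. Mup5 went with Mup1 (r 0.78) and Mup2 (r 0.74), at 0.75 and 0.71 without that array. The dim Mup3 probe had r between -0.15 and 0.26 with the other members.

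**Figure D4:**
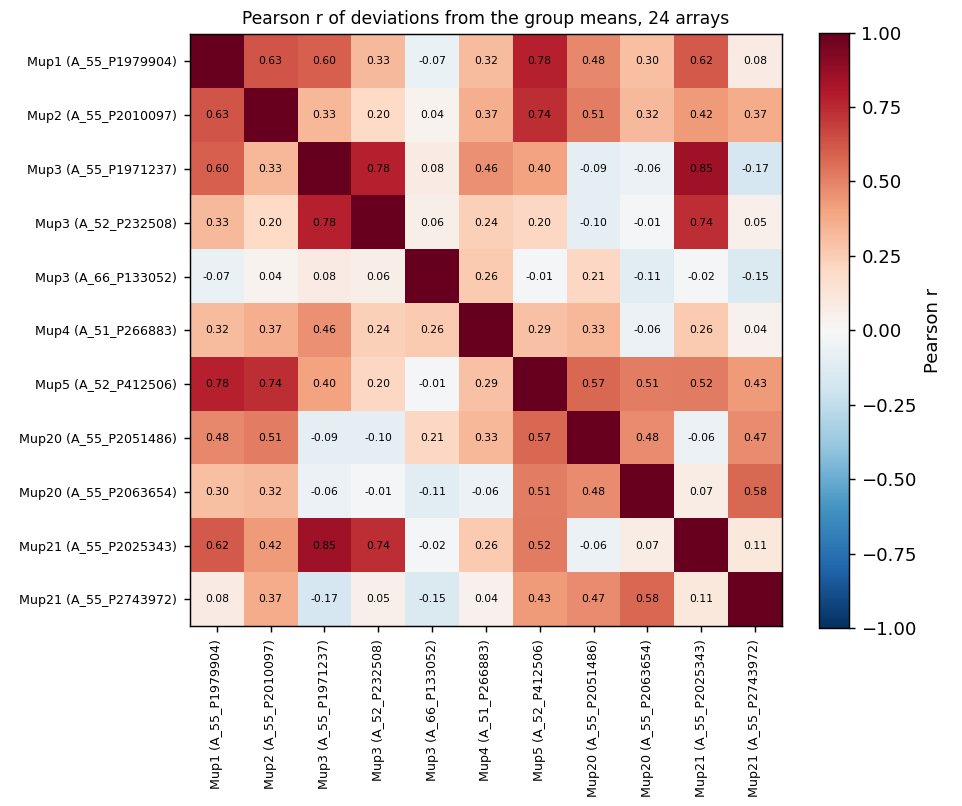
Pearson r between Mup probes of each array's deviation from its group mean, over 24 arrays; red is positive and blue is negative. Mup21 A_55_P2025343 pairs with the bright Mup3 probes (0.85 and 0.74), and Mup5 with Mup1 and Mup2 (0.78 and 0.74).

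The genes whose deviations were most like the mean deviation of the member probes, among genes without a Mup name, were Cyp7b1 (r 0.88), which encodes an oxysterol hydroxylase, and Rarres1 (r 0.86). A long noncoding RNA known by position (r 0.85), the sulfotransferase gene Sult2a8 (r 0.84), the glucagon receptor gene Gcgr (r 0.83) and Krtcap2 (r 0.83) followed. The noncoding RNA was read by a dim probe, with a mean log2 signal of 6.16. Within the 4 groups Cyp7b1 had r between 0.86 and 0.94, from the same deviations by which it was picked. The lowest values were those of Tm6sf2 (r -0.84), Renbp (r -0.83) and an Ensembl-named transcript (r -0.83). The order rests on LKO_Fasted replicate 4. Without it the noncoding RNA was at 0.85, Cyp7b1 at 0.84, Rarres1 at 0.79, Gcgr at 0.77, Sult2a8 at 0.73 and Krtcap2 at 0.71, and the 3 lowest were between -0.78 and -0.72. Cyp7b1 itself did not pass between fasted genotypes (log2 difference 0.46, SE 0.31, adjusted p 0.332).

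Other Mup-named genes were read by 10 probes, all tested, for Mup6, Mup11, Mup17, Mup19, Mup-ps12 and Mup-ps16. Of these, 4 were called lower between fasted genotypes and 4 for fasting in LKO, 2 were called lower for fasting in LWT, and none was called higher in any comparison. Over all probes, 3.61% were called between fasted genotypes (2.03% lower), 12.0% for fasting in LKO and 9.14% for fasting in LWT. Between fed genotypes 0 were called or passed limma's test. The median difference over these 10 probes was -0.40 between fed and -0.57 between fasted genotypes. Leaving out single arrays gave 2 to 6 lower calls between fasted genotypes and 2 to 4 for fasting in LKO. Between fed genotypes leaving out single arrays gave 0 to 5, and for fasting in LWT 0 to 2.

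A probe of the pseudogene Mup-ps16 (A_55_P2570281) had mean log2 signals of 10.26 in LWT_Fed, 9.28 in LWT_Fasted, 9.40 in LKO_Fed and 7.71 in LKO_Fasted, with 23 arrays in the fit, as 1 spot had been left out. Mup-ps16 fell with fasting by 0.94 in LWT (SE 0.31, adjusted p 0.0182) and by 1.55 in LKO (SE 0.35, adjusted p 0.00126). The difference between fasted genotypes was -1.42 (SE 0.35, adjusted p 0.00568). A probe of Mup-ps12 (A_55_P2726423) showed the same order, with means of 8.53, 7.65, 7.84 and 6.40, and a difference between fasted genotypes of -1.17 (SE 0.31, adjusted p 0.00953). For these 2 probes the calls for fasting in LKO and between fasted genotypes held in 35 of 35 other settings. A filter for probes well above background on all 24 arrays left both out, since the Mup-ps16 probe was so on 23 arrays and the Mup-ps12 probe on 22. The other probe of each pseudogene did not reach a call, with -0.18 for Mup-ps16 (A_55_P2083233) and -0.43 for Mup-ps12 (A_55_P1981197) between fasted genotypes.

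Mup11 (A_52_P402127) had means of 12.99 in LWT_Fed, 12.53 in LWT_Fasted, 12.38 in LKO_Fed and 11.39 in LKO_Fasted. It fell with fasting in LKO by 0.85 (adjusted p 0.0442) and was lower by 0.95 between fasted genotypes (adjusted p 0.0442), calls that held in 18 and 19 of 36 other settings. A second Mup11 probe (A_55_P2716915) fell with fasting in LKO by 0.80 (adjusted p 0.0358), held in 27 of 36, but did not pass between fasted genotypes, at -0.65 (SE 0.29, adjusted p 0.130). Mup6 (A_52_P387467) had means of 12.21, 12.26, 11.71 and 11.43 in the same order, with a difference of -0.68 between fasted genotypes (adjusted p 0.0252), held in 30 of 36. The bright probes of Mup17 and Mup19 gave -0.08 and -0.01 between fasted genotypes.

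**Figure D5:**
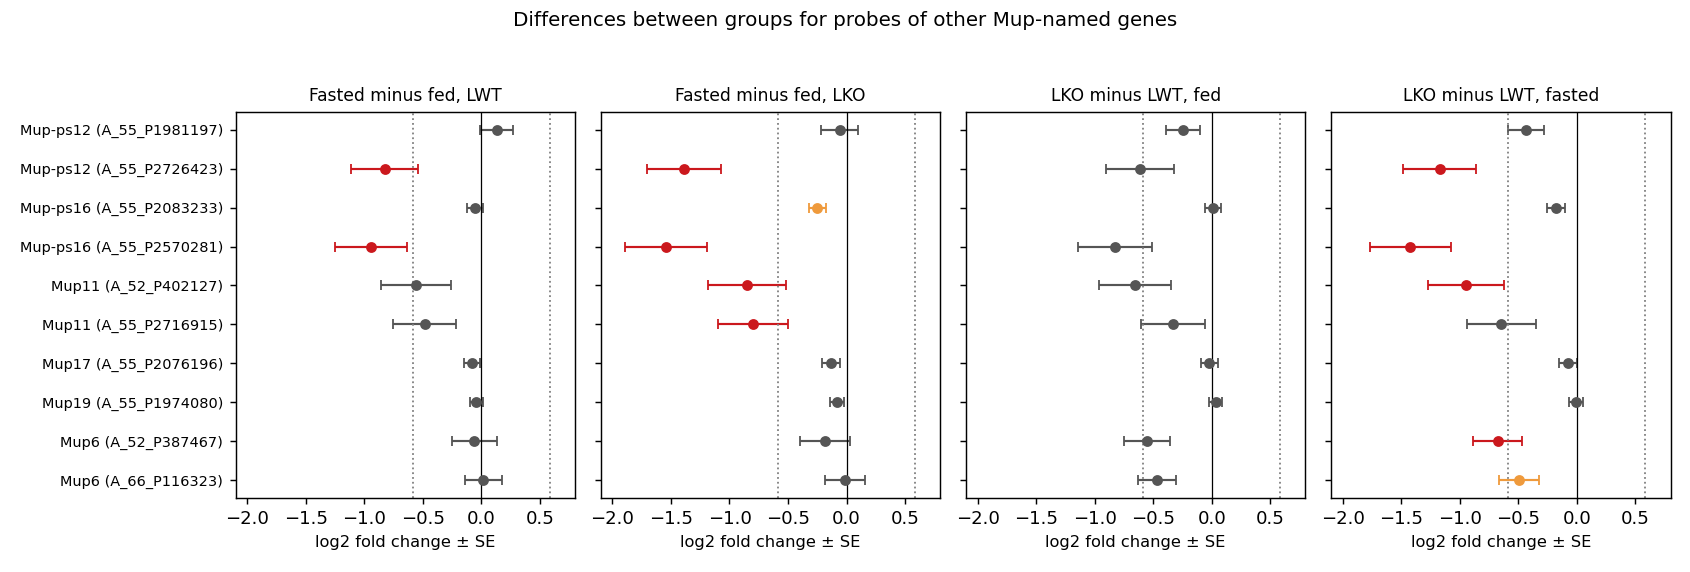
Log2 fold change ± SE for 10 probes of Mup-named genes outside the 7 members (rows) in 4 comparisons (panels), with colours and dotted lines as for the members. The largest falls between fasted genotypes are those of Mup-ps16 A_55_P2570281 (-1.42) and Mup-ps12 A_55_P2726423 (-1.17).

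A further 7 probes carry another name but are described in the files as major urinary proteins or their pseudogenes, a set chosen after their descriptions were read. Between fasted genotypes 2 of the 7 were called lower, A_55_P2103703 (-0.76, adjusted p 0.0482) and A_55_P2116674 (-0.60, adjusted p 0.0416), and none was called in the other comparisons, beside 2.03% of all probes called lower between fasted genotypes. Leaving out single arrays gave 0 to 5 calls between fasted genotypes, 0 to 3 between fed genotypes and 0 to 1 for fasting in LKO, and without array weights 4 were called between fasted genotypes. The 2 calls held in 14 and 22 of 36 other settings. The first of these is the probe with 54 of 60 bases in common with Mup20 A_55_P2051486, whose own difference was -0.17.

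Of the growth hormone and STAT5 genes, 16 of 17 were tested. Between fasted genotypes 2 were called higher and 2 lower, where 4.06% of all 21495 genes were called. Socs2, an inhibitor of the receptor induced by STAT5, was higher by 2.27 (SE 0.49, adjusted p 0.00228), and Socs3, another inhibitor, by 0.92 (adjusted p 0.00909). Prlr, the prolactin receptor, was lower by 0.68 (adjusted p 0.0367), and Ghr, the growth hormone receptor, by 0.59 (SE 0.08, adjusted p 3.31e-05). The Ghr call held in 28 of 36 other settings and the Prlr call in 26. Between fed genotypes no gene of the list was called or passed limma's test.

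Fasting in LKO gave 5 calls in this list, 2 higher and 3 lower, where 12.8% of genes were called. Socs2 rose by 2.58 (adjusted p 0.000257) and Socs3 by 1.97 (adjusted p 1.12e-06). Bcl6, a repressor of STAT5 target genes, fell by 2.46 (adjusted p 0.00176), and Igfals, a carrier protein for IGF1, fell by 0.98 (adjusted p 1.07e-05). Fasting in LWT gave 3 calls, 2 higher and 1 lower, where 10.0% were called. They were Socs3 (1.67, adjusted p 3.05e-06), Socs2 (1.47, adjusted p 0.0124) and Bcl6 (-1.74, adjusted p 0.0113), in the same directions as in LKO. The difference of the fasting responses was -0.54 for Ghr (adjusted p 0.00516), under the 1.5-fold minimum, a value named after it was seen.

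Among 9 hormone receptors, 1 was called higher and 1 lower between fasted genotypes, beside 4.06% of all genes, namely Lepr, the leptin receptor (2.56, adjusted p 5.97e-09), and Ghr. Esr1, an oestrogen receptor, gave -0.21 (adjusted p 0.452). For fasting in LKO 1 was called higher and 2 lower, beside 12.8% of all genes, and Esr1 fell by 1.61 (adjusted p 2.73e-07). For fasting in LWT 1 was called lower and 0 higher, beside 10.0%, namely Esr1 (-0.91, adjusted p 0.000118).

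Of other genes known for higher expression in male liver, 17 of 18 were tested. Between fasted genotypes 4 were called lower and 1 higher, beside 4.06% of all genes, and the list's median was -0.38 beside -0.0039 over all genes. Hsd3b5, a male-specific steroid dehydrogenase, was lower by 2.02 (adjusted p 0.000357), Cyp4a12a by 0.71 (adjusted p 0.0109) and Selenbp2 by 0.68 (adjusted p 0.0464), while Egfr was higher by 1.12 (adjusted p 0.00652). The Selenbp2 call held in 19 of 36 other settings. Between fed genotypes 2 were called lower and 1 higher, with Cyp4a12a lower by 1.27 (adjusted p 0.000119), where 3.84% of genes were called. For fasting in LKO 3 were called higher and 2 lower, beside 12.8% of all genes, and for fasting in LWT 2 higher and 3 lower, beside 10.0%.

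Genes known for higher expression in female liver were tested for 8 of 16. Between fasted genotypes 2 were called lower, Hamp2 (-1.76, adjusted p 0.00936) and Cyp2a4 (-1.05, adjusted p 0.00311), and none higher, beside 4.06% of all genes, with a median of -0.38 beside -0.0039. Of 10 other secreted lipocalins and carriers tested, none was called between fasted genotypes, and Ptgds, a prostaglandin synthase of this family, gave 0.54 (adjusted p 0.578) and Lcn2 -0.46 (adjusted p 0.533). Of 18 other abundant secreted liver proteins, none was called in any comparison by limma with the 1.5-fold minimum, and 2 for fasting in LWT and 3 in each of the other group comparisons had an adjusted p of at most 0.05. Of 24 tested genes without a Mup name whose probe lies within 1000000 bases of a member probe, 7 were called for fasting in LWT and 7 in LKO, 0 between fed genotypes and 3 between fasted genotypes, beside 10.0%, 12.8%, 3.84% and 4.06% of all genes. The 3 were Gm21286 (-1.41, adjusted p 0.00325), Susd1 (0.89, adjusted p 0.000257) and the ceramide glucosyltransferase gene Ugcg (0.80, adjusted p 9.96e-05).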

How the data were processed

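Liver RNA of 24 mice was hybridised to one-colour Agilent arrays. Per the labels and the file headers, the authors scanned them and extracted the deposited intensity values with Agilent Feature Extraction 10.10.1.1. The deposited series matrix holds the authors' log2 values after quantile normalization, which were used as an alternative. Here, log2 of the median signal was quantile normalized over 32197 of 56605 probes, those well above background on at least 5 of 6 arrays of a group. All 11 member probes passed this filter. Groups were compared with limma 3.58.1 (R 4.3.3), with array weights, slide as a term in place of the washing batch named in the methods, and Benjamini-Hochberg adjustment. Fold changes are weighted, so they can differ from differences of plain means. The fit was tested on simulated data. Symbols were updated through RefSeq accessions for 32994 probes, and a listed gene was read by its brightest probe. The members and lists were chosen with earlier results of these data known. Named genes are every member probe, up to 4 genes per list by size of change, and the 6 most and 3 least alike genes. Alternatives covered signal, background correction, filter, weights, slide, compared groups and single arrays. That replicates are separate mice is taken from the labels. The 6 arrays per group set the precision. No column was left without a sample.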

Additional observations from a re-analysis of the deposited data

Results flagged for a closer look

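Within groups of 6 arrays, 5 of the 44 probe-by-group sets had 1 array far from the others, its gap to the nearest divided by the group's range being above 0.625, and chance alone gives about 1 in 20. LKO_Fasted replicate 4 was the lowest array for Mup21 A_55_P2025343 (15.48 against 16.19 to 16.55, ratio 0.666), for Mup3 A_52_P232508 (17.51 against 18.02 to 18.19, ratio 0.751) and for Mup3 A_55_P1971237 (17.23 against 17.63 to 17.81, ratio 0.691). That array had the second lowest weight of the 24, at 0.355, and 57.9% of its probes were well above background, within the range of its group. For Mup3 A_55_P1971237, LWT_Fed replicate 2 was lowest at 17.95 against 17.99 to 18.01 (ratio 0.685). For Mup3 A_66_P133052, LKO_Fed replicate 5 was highest at 8.70 against 8.15 to 8.29 (ratio 0.741).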

How the results depend on the processing

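The counts of called member probes (0, 0, 0, 1 and 0 for fasting in LWT, fasting in LKO, genotype in fed, genotype in fasted and the difference of the fasting responses) moved in 2 ways. Without a minimum fold they were 4 for fasting in LKO, 2 for genotype in fed and 3 for genotype in fasted. Leaving out single arrays gave 0 to 1 for genotype in fasted, where 23 of 24 fits kept 1 and the fit without LKO_Fasted replicate 4 gave 0, and 0 for the other comparisons. The Mup21 A_55_P2025343 difference between fasted genotypes lay between -0.77 and -0.57 over 36 settings, was called in 35 of them, and was below 0 within each of 3 slides (-1.16 to -0.54). Among member values that passed neither way, 91 of 1979 changed sign. These were uneven. For the difference of the fasting responses, Mup5 changed sign in 15 of 35 settings, Mup20 A_55_P2063654 in 18 and Mup21 A_55_P2743972 in 13. Between fed genotypes, Mup1, Mup2, Mup3 A_52_P232508, Mup20 A_55_P2063654 and Mup21 A_55_P2743972 each did so in 2 of 36. With a replicate block in place of the slide the counts were 0, 0, 0, 1 and 0. The replicate numbers did not pair the arrays, since same-numbered arrays had a median correlation of -0.03 over 36 pairs, with 4 above 0.1. Whether the position of the bright member probes near the top of the signal range hides differences was not tested.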
